A study of Mus musculus with 6 samples.

Results

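The globin genes described here are 4 genes of the β-globin cluster (*Hbb-bs*, *Hbb-bt*, *Hbb-bh1* and *Hbb-y*) and 3 genes of the α-globin cluster (*Hba-a1*, *Hba-a2* and *Hba-x*), out of 56262 genes in the count table. They were chosen by name with earlier results of these data known, namely their counts in WT and KO and the ratio of embryonic to adult globin counts. These values are therefore given as a description, with no test. RNA-seq was done on leg muscle of mouse fetuses at embryonic day 18.5 (E18.5), with 3 WT and 3 KO samples. The KO fetuses lack *SYISL*, a long noncoding RNA transcribed from within *Synpo2*, and no treatment is named for any sample. Sires and dams had the same genotype as the fetuses, so the genotype of the fetus and that of the mother cannot be told apart. WT mice came from a university animal center and the KO line from an earlier study, while strain, litter and the number of fetuses per sample are not given in the sources used here. Separate animals are not stated for the samples, so every p-value measures only the spread between samples, which may be technical.

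Hemoglobin of red blood cells is built from α-like and β-like globin chains, each carrying heme. Mouse embryos first make primitive red cells in the yolk sac, which use the embryonic chains ζ (*Hba-x*), εy (*Hbb-y*) and βh1 (*Hbb-bh1*). Definitive red cells, made later in the fetal liver and then in the bone marrow, use the adult α chains (*Hba-a1* and *Hba-a2*) and adult β chains (*Hbb-bs* and *Hbb-bt*). Muscle fibers carry myoglobin instead, and blood in the tissue brings globin transcripts into a muscle sample.

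The samples held 82054811 to 102233181 counts. The limit that a count of 0 allows, 3 counts, lay between 0.0284 and 0.0363 CPM (counts scaled to library size with the TMM method), and like every interval given here it covers counting error only. No row of the table carries the name *SYISL*. Its host gene *Synpo2* was at 136 ± 4.21 CPM in the WT samples against 214 ± 18.9 CPM in the KO samples (SD, n = 3), which does not check the deletion. Markers of skeletal muscle were abundant in both genotypes, with 4513 and 12495 CPM of *Acta1* on average. Of 22071 genes tested with the edgeR quasi-likelihood test, 8.39% were lower in KO and 8.31% higher. A call needed a Benjamini-Hochberg adjusted p under 0.05 together with more than a 1.5-fold difference. At an adjusted p under 0.05 alone, 5098 were lower and 4838 higher, so many genes of any list pass without a fold-change threshold. The share of all genes at an unadjusted p under 0.05 is not given here. Counts of a list under that rule therefore have no background beside them. The median log2 fold change of all genes was -0.0041.

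Both pairs of adult genes are close copies, and the coding sequences show which members can be told apart by reads. *Hbb-bt* differed from *Hbb-bs* at 1 of 441 coding bases (99.8% identity), and *Hba-a2* from *Hba-a1* at 1 of 426. The embryonic genes were far from their adult partners, with 74.4% identity of *Hbb-y* to *Hbb-bs*, 73.9% of *Hbb-bh1* to *Hbb-bs* and 61.7% of *Hba-x* to *Hba-a1*. *Hbb-bh1* and *Hbb-y* shared 76.4% of their coding bases. The first 90 coding bases of the GENCODE M21 transcripts (mm10) are printed to show this contrast. Capitals mark bases that differ from *Hbb-bs* in the β-like genes and from *Hba-a1* in *Hba-x*, while *Hbb-bt* and *Hba-a2* are identical to their adult partners over this stretch.
Hbb-bs: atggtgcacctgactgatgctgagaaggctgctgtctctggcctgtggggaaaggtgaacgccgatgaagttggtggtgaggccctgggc
Hbb-y: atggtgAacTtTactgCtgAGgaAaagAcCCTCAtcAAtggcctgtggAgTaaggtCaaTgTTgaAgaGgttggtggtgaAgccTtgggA
Hbb-bh1: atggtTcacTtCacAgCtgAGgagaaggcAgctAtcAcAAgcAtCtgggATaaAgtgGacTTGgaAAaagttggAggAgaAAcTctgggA
Hba-a1: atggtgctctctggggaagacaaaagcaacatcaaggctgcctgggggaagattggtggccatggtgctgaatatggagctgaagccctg
Hba-x: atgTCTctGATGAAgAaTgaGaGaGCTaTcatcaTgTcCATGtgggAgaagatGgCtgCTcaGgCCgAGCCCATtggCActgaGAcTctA

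Over these 90 bases *Hbb-y* differed from *Hbb-bs* at 26 positions, *Hbb-bh1* at 29, and *Hba-x* from *Hba-a1* at 44. Of the 150-base windows of the main transcript, a length equal to 1 read, 58.7% in *Hbb-bs* and 50.7% in *Hbb-bt* occur in both genes. The share was 48.4% in *Hba-a1* and 65.7% in *Hba-a2*. No window of *Hbb-y*, *Hbb-bh1* or *Hba-x* occurs in another gene. How reads that map to several genes were counted is not given in the sources used here, so the split within either adult pair is uncertain, while each embryonic gene can be told from the adult genes.

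Promoters were read from RefSeq (GRCm38.p6) for 6 members, all but *Hbb-bh1*. The 150 bases before the RefSeq start were searched on both strands for a CACCC box, a CCAAT box, the letters GATAA of a GATA site, and a TATA-like stretch, which was ATAAA or TATAA and may hold both in overlap. A CACCC lay in all 6 windows, against 37.4% of 32851 promoters of the same length. A CCAAT lay in 5 of the 6 and not in that of *Hba-x*, against 24.5% of all promoters. ATAAA or TATAA lay in all 6, against 28.7%. GATAA was found in that of *Hba-x* alone, against 13.3%. The window of *Hbb-bt* held 3 CACCC and 3 CCAAT, where that of *Hbb-bs* held 1 of each. The promoters of *Hba-a1* and *Hba-a2* were identical over 297 bases. 1 embryonic and 1 adult promoter are printed with the matches in capitals, *Hbb-y* at chr7:103853208-103853357 (minus strand) and *Hba-a2* at chr11:32296342-32296491 (plus strand), since RefSeq and GENCODE place the starts of these genes within a few bases of each other. For *Hbb-bs*, *Hba-a1* and *Hba-x* the whole window lies within the span of the GENCODE gene, and for *Hbb-bt* a part of it does. These windows are thus upstream of the RefSeq start only. The matches describe letters and no binding was measured.
Hbb-y: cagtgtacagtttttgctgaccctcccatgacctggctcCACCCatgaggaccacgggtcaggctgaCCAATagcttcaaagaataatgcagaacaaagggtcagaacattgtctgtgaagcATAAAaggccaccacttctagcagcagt
Hba-a2: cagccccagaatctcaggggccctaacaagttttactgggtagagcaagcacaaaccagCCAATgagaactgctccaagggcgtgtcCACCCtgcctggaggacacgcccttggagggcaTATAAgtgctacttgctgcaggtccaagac

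Globin transcripts as a whole were lower in KO muscle. The 7 genes together held 405990, 418188 and 404712 counts in the WT samples, against 50293, 62154 and 54296 in the KO samples. This was 0.442%, 0.510% and 0.396% of all counts in WT against 0.0538%, 0.0629% and 0.0538% in KO. Their summed CPM averaged 4395 ± 620 in WT against 582 ± 61.5 in KO (SD, n = 3), a 7.55-fold difference with no overlap. All 7 genes had every KO value below every WT value, as did 28.5% of the genes tested. *Hbb-bh1* did not pass the filter on low counts. The other 6 were past both thresholds of the call, and since the members were chosen with this contrast known, nothing is read from that count. In bulk tissue, fewer red cells and less globin RNA per red cell cannot be told apart.

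**Figure D1:**
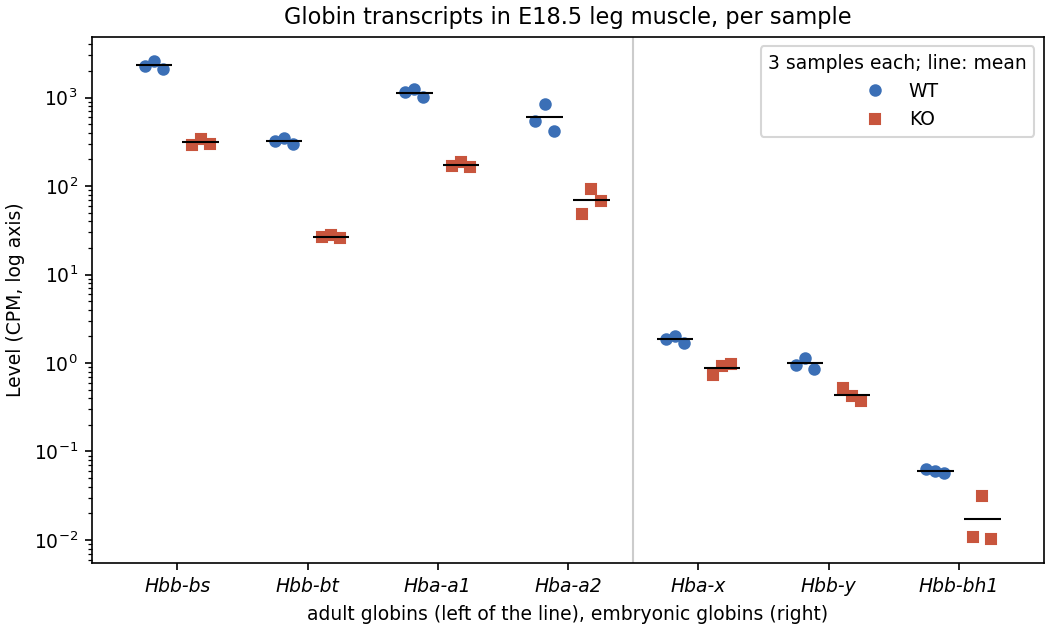
Level of each globin gene in each sample in CPM on a log axis, with WT as circles, KO as squares and a line at the mean of 3 samples. The 4 adult genes lie between 301 and 2610 CPM in WT and between 26.1 and 342 CPM in KO, and the 3 embryonic genes at or below 2.03 CPM, with no overlap of the genotypes for any gene.

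The adult β genes carried most globin counts. *Hbb-bs*, the major adult β gene (ENSMUSG00000052305.6, chr7:103826534-103828096, minus strand), had 2271, 2610 and 2108 CPM in WT against 292, 342 and 298 CPM in KO. It was the most abundant member in every sample, and the highest KO sample lay far under the lowest WT sample. The means were 2330 ± 256 and 311 ± 27.2 CPM, a 7.50-fold difference and a log2 fold change (KO over WT) of -2.91 with a standard error (SE) of 0.098.

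*Hbb-bt*, the other adult β gene (ENSMUSG00000073940.3, chr7:103812524-103813996, minus strand), had 324, 346 and 301 CPM in WT against 26.5, 28.0 and 26.1 CPM in KO. These samples were tight within each genotype, with a coefficient of variation of 7.02% in WT and 3.71% in KO. The log2 fold change was -3.59 (SE 0.062), a 12.1-fold difference and the farthest from 0 among the 6 members with a fitted value.

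The adult α genes followed. *Hba-a1* (ENSMUSG00000069919.7, chr11:32283511-32284465, plus strand) had 1142, 1251 and 1004 CPM in WT against 169, 188 and 165 CPM in KO. The log2 fold change was -2.70 (SE 0.090), from 1133 ± 124 to 174 ± 12.5 CPM, and the genotypes were as clearly apart as for *Hbb-bs*.

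*Hba-a2* (ENSMUSG00000069917.7, chr11:32296489-32297298, plus strand) was the least even adult member. It had 548, 850 and 418 CPM in WT against 47.9, 92.6 and 67.9 CPM in KO. WT sample 2 and KO sample 2 stood highest, and the coefficient of variation was 36.6% in WT and 32.3% in KO. The log2 fold change was -3.12 (SE 0.29), a difference of 8.72-fold, still without overlap.

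Summed by chain, the adult β genes had 2653 ± 278 CPM in WT against 337 ± 28.1 in KO, a 7.87-fold difference. The adult α genes had 1738 ± 342 against 244 ± 33.5 CPM, 7.14-fold. The factor was thus alike for both chains. The ratio of adult α to adult β counts was 0.651, 0.711 and 0.590 in WT against 0.679, 0.760 and 0.720 in KO. These ranges overlap, and so do those per kilobase of exon, 0.587 to 0.724 in WT and 0.668 to 0.765 in KO.

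Among the embryonic genes, *Hba-x*, which encodes the ζ chain (ENSMUSG00000055609.8, chr11:32276400-32278116, plus strand), had the most counts. It had 175, 168 and 178 counts in WT against 69, 89 and 95 in KO, or 1.85, 2.03 and 1.69 CPM against 0.736, 0.934 and 0.977 CPM. KO samples lay below WT samples, but by much less than for the adult α genes. The difference was 2.10-fold, with a log2 fold change of -1.07 (SE 0.14).

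*Hbb-y*, which encodes the εy chain (ENSMUSG00000052187.4, chr7:103851749-103853216, minus strand), had 91, 95 and 91 counts in WT against 49, 40 and 36 in KO. This was 0.961, 1.15 and 0.862 CPM against 0.523, 0.420 and 0.370 CPM, again without overlap. The log2 fold change was -1.17 (SE 0.18), a 2.27-fold difference.

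*Hbb-bh1*, which encodes the βh1 chain (ENSMUSG00000052217.6, chr7:103841637-103843164, minus strand), was near the limit of detection. It had 6, 5 and 6 counts in WT against 1, 3 and 1 in KO, so all KO libraries were at or below 3 counts. Over the summed libraries, 17 counts in WT against 5 in KO gave a ratio of 3.44 with a 95% counting interval of 1.22 to 11.9. Together the embryonic genes had 2.91 ± 0.320 CPM in WT against 1.34 ± 0.0602 CPM in KO, a 2.17-fold difference.

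Levels of different genes were compared per length. In WT the order by CPM per kilobase of exon was *Hbb-bs* (3033 ± 333), *Hba-a1* (1395 ± 152), *Hba-a2* (908 ± 332), *Hbb-bt* (461 ± 32.3), *Hba-x* (1.98 ± 0.185), *Hbb-y* (1.57 ± 0.231) and *Hbb-bh1* (0.0983). The same order held in KO, at 404 ± 35.4, 214 ± 15.4, 104 ± 33.6, 38.2 ± 1.41, 0.941 ± 0.137, 0.691 ± 0.123 and 0.0285. Of the neighbours in this order, *Hba-x* and *Hbb-y* overlapped between samples in both genotypes and *Hba-a1* and *Hba-a2* in WT. The other neighbours did not overlap in this unit. Adult genes thus exceeded embryonic genes by more than 2 orders of magnitude in WT. *Hbb-bh1* lay more than an order below the other embryonic genes. The order of *Hba-a1* and *Hba-a2* depended on the unit. Per read-length window that no other gene holds, the mean of *Hba-a2* was above that of *Hba-a1* in WT and below it in KO. Which member of this nearly identical pair was higher is therefore uncertain.

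Because the adult genes differed more between genotypes than the embryonic ones, the embryonic share was higher in KO. Among β-like counts, *Hbb-y* and *Hbb-bh1* made up 0.0395%, 0.0409% and 0.0381% in WT against 0.167%, 0.122% and 0.117% in KO. The 95% exact binomial intervals (Clopper-Pearson) reached at most 0.0498% in WT and started at 0.0827% or above in KO, and all KO samples lay above all WT samples. These intervals describe the precision of each share and are no test, since the shares were part of what chose the genes. The means were 0.0395 ± 0.00140% and 0.135 ± 0.0275%, a ratio of 3.43.

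Among α-like counts, *Hba-x* made up 0.109%, 0.0967% and 0.118% in WT against 0.339%, 0.331% and 0.417% in KO. The intervals ran up to 0.137% in WT and down to 0.264% in KO. The means were 0.108 ± 0.0109% and 0.362 ± 0.0476%, a ratio of 3.35, close to that of the β-like genes. Over all 7 genes the embryonic share was 0.0663 ± 0.00201% in WT and 0.231 ± 0.0162% in KO. In counts this was 272, 268 and 275 embryonic counts against 405718, 417920 and 404437 adult counts in WT, and 119, 132 and 132 against 50174, 62022 and 54164 in KO. A higher share in KO therefore went with fewer embryonic counts in every KO sample than in any WT sample.

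**Figure D2:**
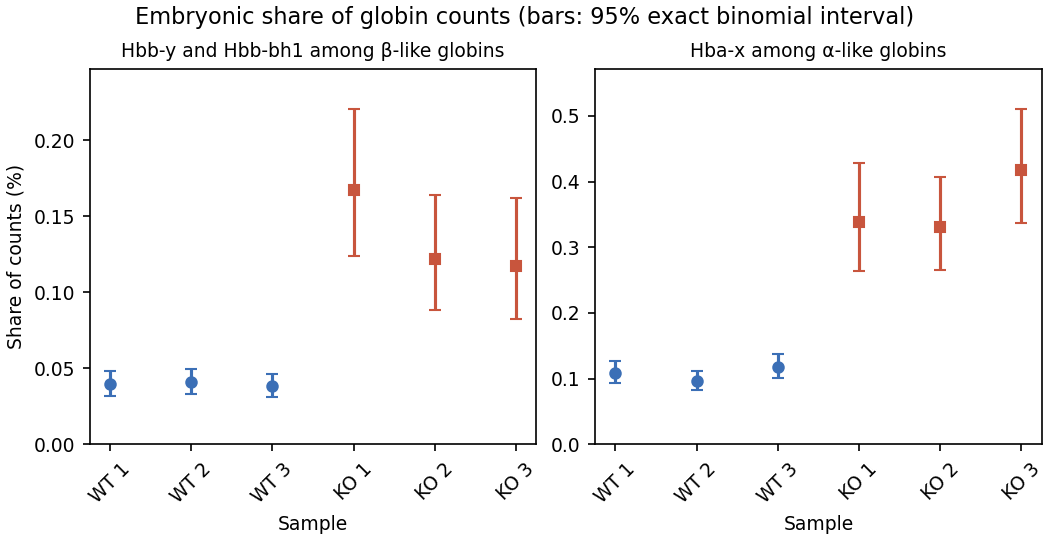
Embryonic share of globin counts (percent) in each of the 6 samples, for β-like genes on the left and α-like genes on the right, with 95% exact binomial intervals as bars. The KO points lie between 0.117% and 0.167% on the left and between 0.331% and 0.417% on the right, above all WT points, and no interval of one genotype reaches the other.

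Other shares separated the genotypes less, or not at all. The α-like genes made up 39.5%, 41.6% and 37.1% of globin counts in WT and 40.5%, 43.2% and 41.9% in KO, which overlap. *Hba-a2* made up 32.4%, 40.5% and 29.4% of adult α counts in WT and 22.1%, 33.0% and 29.1% in KO, also with overlap. *Hba-x* made up 63.9 ± 1.08% of embryonic counts in WT and 65.8 ± 7.13% in KO, and *Hbb-bh1* 5.79 ± 0.684% and 3.89 ± 2.69% of embryonic β-like counts, both overlapping.

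*Hbb-bt* was the exception. It made up 12.5%, 11.7% and 12.5% of adult β counts in WT and 8.30%, 7.57% and 8.06% in KO, so its share in KO was 0.652 times that in WT. The genotypes did not overlap, but the nearly identical sequence of both genes and the unknown handling of shared reads apply to this share.

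**Figure D3:**
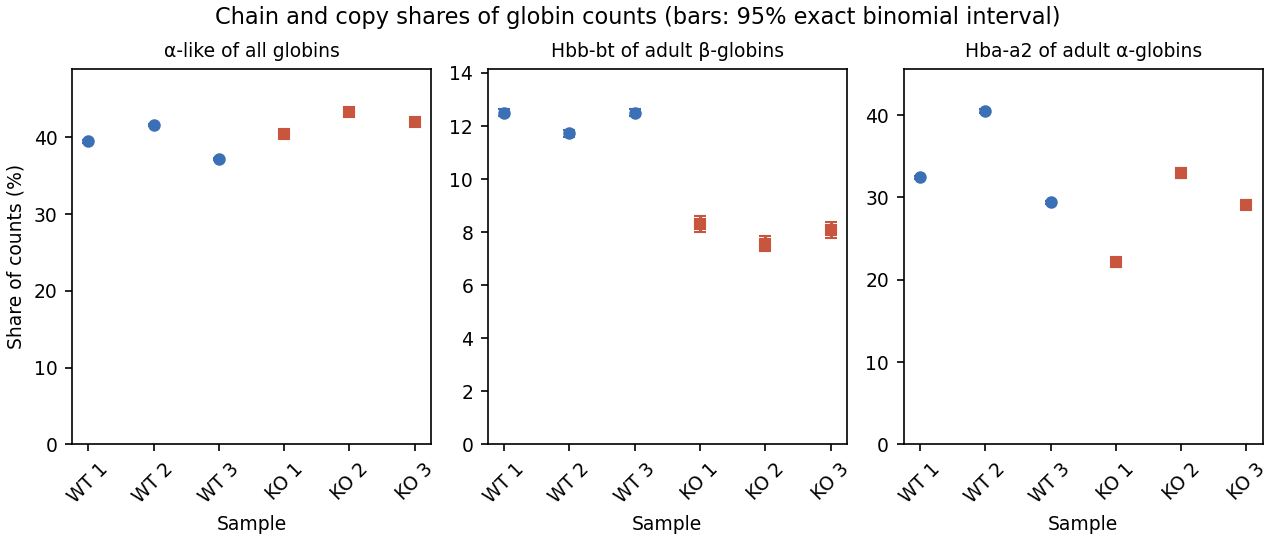
Shares of globin counts (percent, axes from 0) in each sample, from left to right for α-like genes among all globins, *Hbb-bt* among adult β genes and *Hba-a2* among adult α genes, with 95% exact binomial intervals as bars. In the middle panel KO lies at 7.57% to 8.30% and WT at 11.7% to 12.5%, while the genotypes overlap in the other panels.

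Patterns across the 6 samples were compared by the Euclidean distance between mean-centred log2 CPM profiles, where 0 means the same pattern. *Hbb-bs* was closest to *Hba-a1* (0.265), then to *Hba-a2* (0.773) and *Hbb-bt* (0.850), and farther from *Hba-x* (2.27) and *Hbb-y*, while *Hbb-bt* was 3.11 from *Hba-x*. *Hbb-y* and *Hba-x* were 0.656 apart. Adult genes of both chromosomes thus lay near each other, and so did the embryonic genes of both chromosomes.

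Of 15859 other genes with a mean of at least 1 CPM, those most like *Hbb-bs* included *Prss8* (distance 0.199), *Gm26807* (0.214), *Sytl1* (0.221) and *Elovl7* (0.237). Their log2 fold changes lay between -2.95 and -2.86. Those most like *Hbb-y* were *Wnt6* (0.170), *Ptgr1* (0.234), *Plekhh1* (0.235), *Plb1* (0.241) and *H2afj* (0.256), with log2 fold changes of -1.21 to -1.09. With 3 samples per genotype these distances mostly reflect the size of the difference between WT and KO, and 701 of the genes tested had a log2 fold change under -2.

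The globin family holds 11 further genes in the lists used here. *Hbb-bh0*, *Hbb-bh2* and *Hbb-bh3*, of the β cluster, had 0 counts in every sample. The θ genes of the α cluster were rare. *Hbq1a* had 12, 10 and 10 counts in the WT samples against 0, 4 and 3 in the KO samples, a ratio of 4.63 with a counting interval of 2.01 to 12.4. *Hbq1b* had 16, 18 and 21 counts in WT against 5, 9 and 5 in KO, a log2 fold change of -1.53 (SE 0.33, adjusted p 0.00473 with the edgeR quasi-likelihood test). The α pseudogenes *Hba-ps3* and *Hba-ps4* had at most 7 counts in any sample.

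None of the globins made outside red cells was called lower. *Mb*, the myoglobin of muscle fibers, was higher in KO, at 849, 868 and 946 counts against 556, 494 and 646 in WT (log2 fold change 0.63, SE 0.063, adjusted p 3.74e-05 with edgeR). Its call was lost when libraries were scaled by their totals alone. *Cygb*, a widely expressed globin, was at 22.5 and 26.4 CPM (0.23, adjusted p 0.00576), under the fold-change threshold. *Ngb*, the neuronal globin, and *Adgb* were not called (log2 fold changes -0.071 and 0.46, adjusted p 0.821 and 0.2).

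Genes outside the globin family that work in red cells were taken from 4 lists with 73 genes, 72 of them in the table and 68 tested. Of these, 16 were lower in KO (23.5%, against 8.39% of all genes), 5 were higher (7.35%, against 8.31%) and 47 were not called. The median log2 fold change over the 68 genes was -0.12. Most genes of these lists therefore did not pass the thresholds, and *Alas2* and *Trim10* were among the largest falls.

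Of the 16 genes of heme synthesis and iron uptake, 2 were lower and 1 higher. *Alas2*, the erythroid enzyme of the first step of heme synthesis, had 9631, 9024 and 10085 counts in WT against 914, 1277 and 1229 in KO. It fell by 3.10 on the log2 scale (SE 0.11, adjusted p 6.87e-08 with edgeR), as much as the adult globins. *Slc11a2*, an iron transporter, was lower (-0.81, adjusted p 5.93e-05), and *Steap3*, a ferrireductase, higher (0.92, adjusted p 4.27e-07). *Fech*, the enzyme of the last step of heme synthesis, was at 70.7 and 60.8 CPM, without overlap (adjusted p 0.00283 with edgeR). It was not called, being under the fold-change threshold. *Tfrc*, the transferrin receptor, was at 71.9 and 76.0 CPM with overlap and was not called (adjusted p 0.331).

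Of 18 tested genes of the red cell membrane, 7 were lower and 4 higher. *Slc4a1*, the anion exchanger band 3, had 1357, 1350 and 1400 counts in WT against 224, 372 and 397 in KO (log2 fold change -2.08, SE 0.17, adjusted p 1.1e-05 with edgeR), and the groups were far apart. *Epb42*, a protein of the membrane skeleton, was lower at -1.37. The higher genes were *Ank1* (0.73), *Sptb* (0.70), *Tmod1* (0.70) and *Rhag* (1.32), and those for ankyrin, β-spectrin and tropomodulin are also expressed in muscle fibers. *Rhag*, an erythroid ammonium channel, had 10, 15 and 22 counts in WT against 14, 57 and 48 in KO, so its groups overlapped although it was called (adjusted p 0.0474 with edgeR). Its call was lost with limma-voom and when any WT sample, KO sample 2 or KO sample 3 was left out.

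Of 15 tested cytosolic genes of red cells, 5 were lower and 0 higher with edgeR, DESeq2 and limma-voom alike. With no fold-change threshold, 10 were lower and 1 higher at an unadjusted p under 0.05, a rule with no share of all genes to set beside it. Among these 10, *Prdx2*, *Bnip3l*, *Ube2l6*, *Xpo7* and *Car2* had an adjusted p of 0.00734 or below with edgeR. They missed a call on fold change alone. *Trim10*, a gene of terminal red cell differentiation, had 202, 184 and 167 counts in WT against 19, 31 and 35 in KO (log2 fold change -2.73, SE 0.22, adjusted p 8.5e-06 with edgeR). *Bpgm*, the enzyme that makes 2,3-bisphosphoglycerate in red cells, fell by 1.32 on the log2 scale. The carbonic anhydrase *Car1* (0.51, adjusted p 0.232 with edgeR) and *Hemgn*, a nuclear protein of erythroid cells (-0.77, adjusted p 0.127), were not called. The carbonic anhydrase *Car2* (-0.53, adjusted p 0.00734) was under the fold-change threshold, and stayed uncalled in 11 of 15 alternative settings.

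Of 19 tested transcription factors and regulators of erythroid cells and of the globin switch, 2 were lower and 17 were not called. With DESeq2 and limma-voom 2 were lower and 0 higher as well. With no fold-change threshold, 7 were lower and 5 higher at an unadjusted p under 0.05. That rule has no share of all genes to set beside it, so nothing is read from these counts. *Gata1*, the master factor of erythroid genes, had 134, 131 and 151 counts in WT against 130, 149 and 141 in KO (log2 fold change -0.0082, adjusted p 0.961 with edgeR), and its groups overlapped. *Klf1*, which activates adult β-globin, was at 0.603 and 0.731 CPM, and *Tal1* at 8.54 and 8.89 CPM, also with overlap. *Nfe2*, a factor of late erythroid cells and megakaryocytes, was lower (-1.36, SE 0.11, adjusted p 1.15e-05 with edgeR). Which cells of the tissue the transcripts of these factors came from was not tested, so the values do not describe red cells alone.

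The repressors of embryonic and fetal globin genes did not move as 1 group. *Bcl11a* was lower in KO, with 2455, 2323 and 2773 counts in WT against 1418, 1248 and 1328 (-0.94, SE 0.066, adjusted p 3.66e-06 with edgeR). *Zbtb7a* was at 73.2 and 50.4 CPM (-0.54, adjusted p 4.39e-04) and *Sox6* at 32.5 and 37.6 CPM (0.21, adjusted p 0.0089), both under the fold-change threshold. *Myb* was not called (-0.068, adjusted p 0.633). All 4 are also expressed in cells other than red cells, and the cells behind these values cannot be told apart in bulk tissue.

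**Figure D4:**
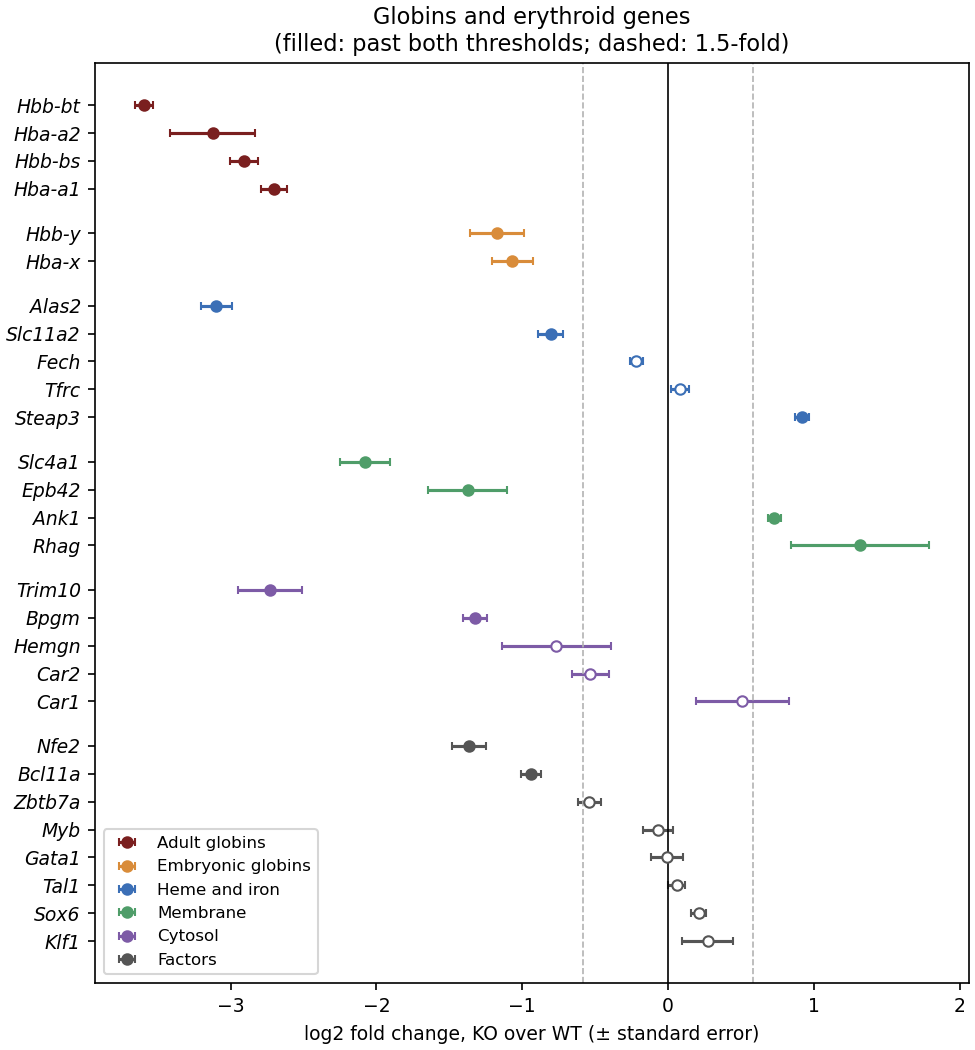
Log2 fold change (KO over WT) with its standard error for 6 globin genes and named genes of the erythroid lists, colored by group; filled points are past both thresholds and dashed lines mark a fold change of 1.5. The adult globins lie between -3.59 and -2.70 beside *Alas2* and *Trim10*, the embryonic globins at -1.17 and -1.07, and *Gata1* and *Tal1* near 0.

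Set against *Alas2* in the same library, the globins differed in their pattern. *Hbb-bs* had 22.3, 23.9 and 22.1 counts per *Alas2* count in WT and 30.0, 25.5 and 23.6 in KO, which overlap. *Hbb-bt* had 3.17 ± 0.0179 in WT and 2.29 ± 0.368 in KO. *Hba-a2* had 5.85 ± 1.75 and 5.73 ± 1.05, and *Hba-a1* 11.1 ± 0.494 and 14.8 ± 2.21. *Hba-x* had 0.0182, 0.0186 and 0.0177 per *Alas2* count in WT and 0.0755, 0.0697 and 0.0773 in KO, so each KO sample was well above each WT sample. Set against *Slc4a1* instead, *Hbb-bs* had 158, 160 and 159 counts per count in WT and 122, 87.6 and 72.9 in KO. The WT ratios were nearly constant, and the KO ratios lay lower and varied more.

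Markers of other cell types also differed between the genotypes, and their part in the globin values was not tested. Nothing is read from their counts at an unadjusted p under 0.05, which have no share of all genes beside them. All 11 markers of epidermis were lower in KO, with a median log2 fold change of -4.26, and their summed level was 17157 to 25509 CPM in WT and 948 to 1062 CPM in KO. None of them was at 0, and *Krt1* and *Krt10*, keratins of the upper epidermis, had 9575 and 5837 CPM in WT. Of 11 muscle markers, 7 were higher in KO and 0 lower with edgeR, DESeq2 and limma-voom. With no fold-change threshold, 7 were higher and 3 lower at an unadjusted p under 0.05. Of the lower genes, *Myog* and *Myod1* also had an adjusted p under 0.05 with edgeR (0.00212 and 0.00494). The sum of the 11 markers was 19273 to 21585 CPM in WT and 40918 to 50174 CPM in KO. Of 9 macrophage markers, 6 were higher and 0 lower with the same 3 tools, with sums of 290 to 310 and 456 to 495 CPM. With no fold-change threshold, 8 of them were higher and 1 lower at an unadjusted p under 0.05.

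The 9 endothelial markers held 0 calls with edgeR, DESeq2 and limma-voom, while 8 were higher at an unadjusted p under 0.05 with no fold-change threshold. As above, counts under that rule have no share of all genes beside them. Of these, *Pecam1*, *Cldn5*, *Kdr*, *Tie1*, *Egfl7*, *Esam* and *Cdh5* had an adjusted p of 0.0286 or below with edgeR. They missed a call on fold change alone. The sum of the 9 markers was 755 to 787 CPM in WT and 866 to 909 CPM in KO. Of 8 tested markers of platelets, 3 were higher and 1 lower, with *Pf4* at 21.4 and 39.0 CPM and a summed level of 31.3 CPM in WT and 48.4 to 57.0 CPM in KO. Of 11 tested markers of neutrophils, 2 were higher (*Elane* and *Mpo*) and 0 lower with edgeR and DESeq2. With no fold-change threshold, 3 were higher and 1 lower at an unadjusted p under 0.05. The neutrophil sums overlapped at 9.04 to 28.6 and 12.7 to 17.2 CPM. Of 5 tested markers of hepatocytes, 0 were called with edgeR, DESeq2 or limma-voom and 0 reached an unadjusted p under 0.05, with sums of 1.37 to 15.8 and 2.92 to 6.88 CPM. Of 8 bone markers 1 was higher and 0 lower with edgeR, DESeq2 and limma-voom, with sums of 18741 to 21234 and 21701 to 22280 CPM. With no fold-change threshold, 4 bone markers were lower and 2 higher at an unadjusted p under 0.05. The 4 lower ones, *Runx2*, *Alpl*, *Sp7* and *Spp1*, had an adjusted p of 0.0282 or below with edgeR.

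**Figure D5:**
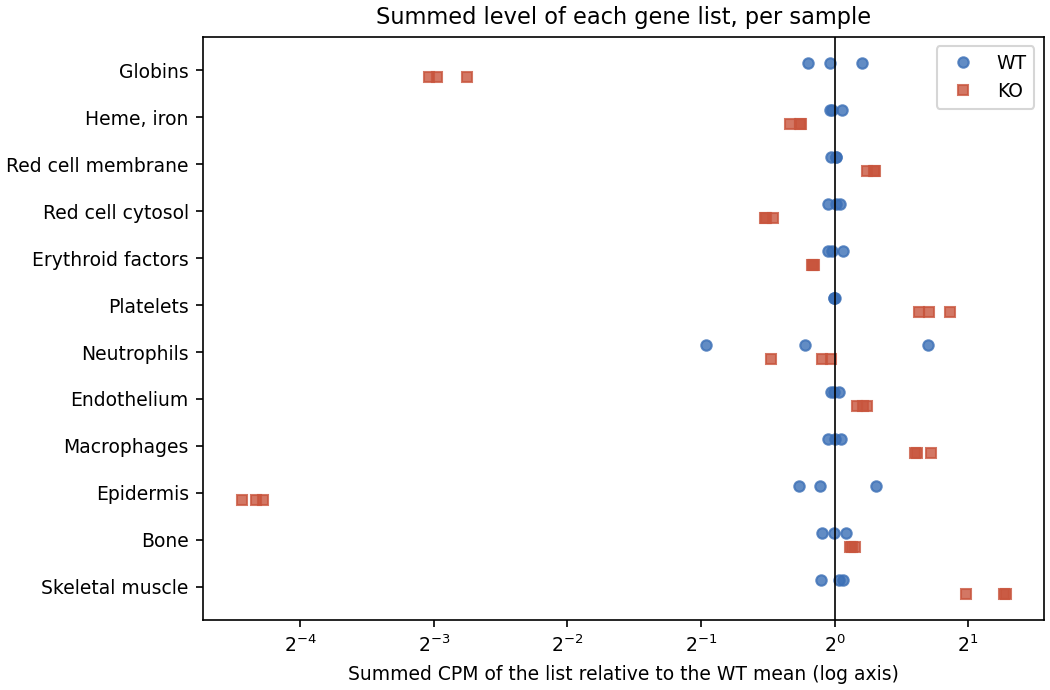
Summed CPM of each gene list in each sample, divided by the WT mean of the list, on a log axis to base 2, with WT as circles and KO as squares. The globins and the epidermis list lie far left of the line in KO, while platelets, macrophages and skeletal muscle lie right of it and of the 4 erythroid lists the cytosol, heme and factor lists lie left of it and the membrane list right of it, with no overlap of the genotypes. The cytosol list is the farthest of these 4, with a WT mean 1.41 times the KO mean.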

How the data were processed

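RNA-seq of E18.5 leg muscle from 3 WT and 3 KO samples was used. The authors trimmed 150 bp paired-end reads with Trim Galore 0.6.6, mapped them to mm10 with HISAT2 2.2.1 and counted them per gene with featureCounts 2.0.1, per the submitters' processing notes, and deposited raw counts, whole numbers with no normalization or filter. Gene annotation, strand setting and the handling of reads that map to several genes are not given in the sources used here. Gene IDs were matched to GENCODE M21 (55227 of 56262 found).

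Counts were analysed in R 4.3.3 with edgeR 4.0.16 (filterByExpr, TMM, quasi-likelihood F-test on genotype alone, Benjamini-Hochberg adjustment over 22071 genes). Each SE of a log2 fold change was derived from this test, as the absolute log2 fold change over the square root of F. On simulated data with 200 changed genes, 198 were recovered and 2 unchanged genes were called. Alternatives were DESeq2 1.42.0, limma-voom (limma 3.58.1), other scaling factors, filters and thresholds, a replicate block, leaving out each sample, and other units for the shares. Replicates exceeded counting noise, at a mean chi-square of 5.17 to 35.5 per gene where noise alone gives 1.

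The members, the gene lists and the tests were chosen with earlier results of these data known. Named were all members, other globins, defining genes of 4 erythroid lists (heme and iron, membrane, cytosol, factors) with up to 2 largest rises and falls called in each, and the 5 genes nearest to *Hbb-bs* and to *Hbb-y* (log2 CPM with a prior count of 2). In the first of these lists 16 of 17 genes were found. *Sptb*, *Tmod1* and the examples of the other cell types (platelets, neutrophils, hepatocytes, endothelium, macrophages, epidermis, bone, muscle) were named after their values were seen. Some genes that this rule names are not reported here, and they remain in the counts of their lists.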

Additional observations from a re-analysis of the deposited data

How the results depend on the processing

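All 6 fitted members kept their direction and stayed past both thresholds under every alternative fit, with log2 fold changes of -2.98 to -2.82 (*Hbb-bs*), -3.66 to -3.52 (*Hbb-bt*), -2.78 to -2.63 (*Hba-a1*), -3.38 to -2.80 (*Hba-a2*), -1.14 to -0.95 (*Hba-x*) and -1.31 to -1.06 (*Hbb-y*). Another scaling moved the median of all genes by at most 0.073 from 0. Without a fold-change threshold, 5098 genes were lower and 4838 higher, and of the erythroid genes 27 and 16. In the other 15 settings 15 to 20 erythroid genes were lower and 4 to 6 higher.

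The size of the embryonic share depended on the unit, since gene lengths differ. Per kilobase of exon, the β-like share was 0.0475% in WT and 0.163% in KO, and the α-like share 0.0872% and 0.296%. Per 150-base window that no other gene holds, a unit chosen after seeing the data, these were 0.0168% and 0.0568%, then 0.0349% and 0.123%, and the α-like part of all globin counts in KO was 39.9%. That unit assumes that reads shared between genes were dropped and that annotated transcript ends hold. KO stayed above WT in each unit. Without 1 sample, the mean β-like share ranged from 0.0388% to 0.0402% in WT and from 0.120% to 0.144% in KO.

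Same-numbered WT and KO samples did not deviate together (correlations of -0.20, -0.13 and 0.047), so the numbers were not taken to pair them. With a replicate block, 1777 genes were lower and 1744 higher, 16 and 5 of them erythroid, and *Hbb-bs* had a log2 fold change of -2.91. The block changed no call of a member. Depth limits *Hbb-bh1*, with at most 6 counts in a sample, and the embryonic shares, which rest on 37 to 100 embryonic counts per sample for the β-like genes and 69 to 178 for *Hba-x*.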
